A study of Arabidopsis thaliana with 32 samples.

Results

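The transcript response to 30 °C was followed in seedlings that were also under simulated canopy shade, by setting 30FR against 21FR after 24 h. Both groups were whole Arabidopsis thaliana seedlings of the wild type Col-0, grown for 3 days at 21 °C in constant white light (70 µE) and then kept for 24 h in light with a red to far-red ratio (R/FR) of 0.6. They differed in temperature, 30 °C in 30FR and 21 °C in 21FR. Each group had 2 libraries, each made from a separate pool of about 25 seedlings, so that 4 of the 32 libraries of the series were compared. The other libraries covered 21WL, 30WL, 21FR and 30FR at 1, 3, 6 and 24 h, where WL is white light. The comparison takes in every gene with over 1 CPM (counts scaled to the size of the library, with TMM normalization) in 2 or more libraries, which left 20145 of 33602 genes. Since whole seedlings were used, a change in the share of a tissue and a change of RNA per cell cannot be told apart.

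Low R/FR is the signature of light filtered or reflected by neighbouring leaves. It moves phytochrome B towards its inactive form, which frees the PHYTOCHROME INTERACTING FACTORs (PIFs) to promote auxin synthesis and elongation. Warmth acts on the same phytochrome, which reverts faster to the inactive form when it is warm. Heat also unfolds proteins, and heat shock factors (HSFs) then bind heat shock elements, inverted repeats of GAA, and raise the transcription of chaperones. Small heat shock proteins hold unfolded proteins, and HSP70, HSP90 and HSP101 refold, mature or disaggregate them.

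The gene counts of the 4 libraries summed to 17565977 to 24654078. With none observed, up to 3 counts remain possible, which is 0.122 to 0.171 CPM. Multiply aligned reads made up 12.52 and 13.02% of the entries of the count table in 21FR and 21.02 and 16.49% in 30FR. Reads of this kind were not counted on any gene, and the part of this difference in the results was not tested. The replicates correlated with a Pearson r of 0.994 in each group over log2 CPM across genes, and pairs of 1 library from each group with 0.972 to 0.978. Of the tissue markers, those of shoot and leaf summed to 55354 and 54244 CPM in 21FR against 33814 and 32836 CPM in 30FR. Much of this sum was the photosynthetic gene RBCS1A, given below. Of the 5 shoot and leaf markers tested, 0 were called, 3 were lower by the FDR alone and 1 had a log2FC above 0. The 10 root markers summed to 234 and 231 CPM in 21FR and to 245 and 270.0 CPM in 30FR. No marker listed for a tissue was at 0 throughout.

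At 24 h, 324 genes were higher and 261 lower in 30FR than in 21FR, at a false discovery rate (FDR) below 0.05 and an absolute log2 fold change (log2FC) above 1 in edgeR's quasi-likelihood test. These are 1.61% and 1.3% of the genes tested. At these shares, few or no calls in a short gene list cannot be set apart from genes in general. By the FDR alone, 1914 genes were higher and 2405 lower, 9.5% and 11.9% of the genes tested, so that most of the change was small. Of the genes called, 85 of those higher and 52 of those lower changed by more than 2 on the log2 scale. The CPM of the groups overlapped for 0 of the 585. With 2 libraries per group this follows largely from the call itself, so a lack of overlap adds no support for single genes. Without replicate 2 of 30FR, 350 genes were called. When libraries were scaled by their size alone, the median log2FC of all genes was 0.18 instead of -0.0023, and 568 genes were higher and 168 lower. The values that follow are relative to the median gene, and every FDR is from edgeR's test with Benjamini-Hochberg adjustment. The genes closest to the threshold among those higher were AT2G07042 inside it (log2FC 1.0001) and AT4G32480 outside it (log2FC 0.9995).

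**Figure D1:**
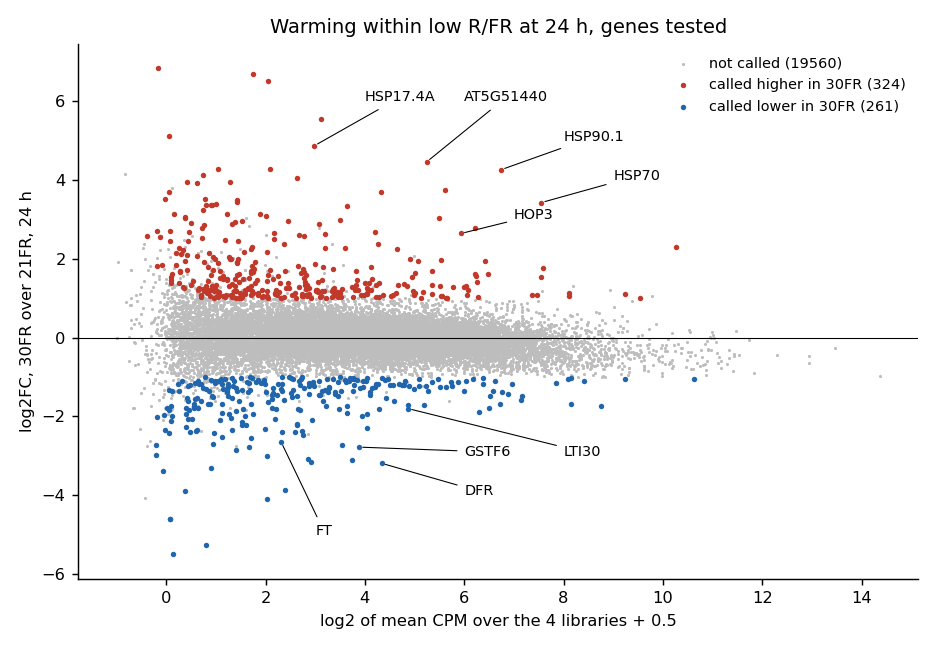
Each point is a gene, with the log2 of its mean CPM over the 4 libraries (plus 0.5) on the horizontal axis and its log2FC of 30FR over 21FR on the vertical axis. The 324 genes called higher (red) reach a log2FC of 6.84 and the 261 called lower (blue) reach -5.50, and grey points were not called.

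Small heat shock proteins and part of the large chaperones were higher in warm than in cool shade after 24 h. Of 17 small heat shock proteins tested, 10 were higher and 0 lower, with a median log2FC of 2.28, and of 24 large chaperones and co-chaperones 8 were higher and 0 lower, with a median of 0.61. Among all genes tested, 1.61% were called higher and 1.3% lower, with a median of -0.0023. These lists were drawn up with earlier results of these data known.

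Among the small heat shock proteins, the mitochondrial HSP23.6 (AT4G25200) was at 0.112 and 0 CPM in 21FR and at 4.55 and 6.83 CPM in 30FR. Its 2 counts against 294 correspond to a ratio of 117, with a 95% exact counting interval of 32.2 to 972 that covers counting error only. HSP17.6 (AT5G12030), another small heat shock protein, had 3 counts in 21FR and 374 in 30FR, a ratio of 99.4 (33.7 to 484). Both genes were thus close to the detection limit in cool shade, and the groups did not overlap. The cytosolic HSP17.4A (AT3G46230) was at 0.840 and 0.207 CPM in 21FR and at 12.4 and 16.2 CPM in 30FR (log2FC 4.87 ± 0.73, SE, edgeR's FDR = 0.000103).

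AT5G51440, an HSP20-like chaperone, was at 3.31 and 3.19 CPM in 21FR and at 71.6 and 71.8 CPM in 30FR (log2FC 4.46 ± 0.44, SE, FDR = 1e-06). AT2G19310, another gene of this family, rose from 37.2 and 38.1 CPM to 96.3 and 90.8 CPM (log2FC 1.31). The replicates of each group lay close together in both, far from the other group. AT1G53540 was at 0.616 and 0.166 CPM in 21FR and at 6.35 and 7.84 CPM in 30FR (log2FC 4.27, FDR = 0.000736). The members that did not pass had log2FC down to 0.23.

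Upstream sequences of 4 of these genes are shown because they are the small heat shock proteins called higher whose 250 bases before the gene start hold paired GAA units. The last 200 bases are printed, 5′ to 3′ on the strand of the gene, from RefSeq's assembly TAIR10.1, and end at the base before the gene start. Capitals mark GAANNTTC or TTCNNGAA, 2 inverted units, and runs of 13 capitals hold 3 units (GAANNTTCNNGAA or TTCNNGAANNTTC). The coordinates are chr5:3884839-3885038 on the minus strand for HSP17.6, chr3:16984868-16985067 on the minus strand for HSP17.4A, chr5:20890963-20891162 on the plus strand for AT5G51440 and chr1:19980099-19980298 on the plus strand for AT1G53540.
HSP17.6: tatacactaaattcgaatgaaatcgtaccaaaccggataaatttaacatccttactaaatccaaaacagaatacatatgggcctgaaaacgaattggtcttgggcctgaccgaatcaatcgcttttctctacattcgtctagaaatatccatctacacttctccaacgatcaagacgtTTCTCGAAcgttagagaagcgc
HSP17.4A: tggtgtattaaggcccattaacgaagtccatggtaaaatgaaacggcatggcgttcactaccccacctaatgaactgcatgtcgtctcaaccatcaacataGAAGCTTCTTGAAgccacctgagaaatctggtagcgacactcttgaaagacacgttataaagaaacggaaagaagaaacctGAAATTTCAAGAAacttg
AT5G51440: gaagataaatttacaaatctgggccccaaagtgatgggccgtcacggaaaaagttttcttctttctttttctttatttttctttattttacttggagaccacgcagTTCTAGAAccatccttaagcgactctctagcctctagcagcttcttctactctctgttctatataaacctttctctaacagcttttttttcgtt
AT1G53540: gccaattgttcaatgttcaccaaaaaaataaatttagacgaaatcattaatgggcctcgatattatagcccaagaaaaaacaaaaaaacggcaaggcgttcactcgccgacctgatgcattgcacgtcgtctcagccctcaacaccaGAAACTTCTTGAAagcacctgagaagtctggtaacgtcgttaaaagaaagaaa

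HSP17.4A held 2 of the 3-unit matches and AT1G53540 1, and the other two genes held a 2-unit match. The 3-unit match stood in the 250 bases, on either strand, for 7 of the 320 genes called higher with a window (2.19%), for 0 of the 261 called lower, and for 88 of 20036 genes tested (0.439%). Among the 18 small heat shock proteins and large chaperones called higher, it stood before 2. It stood before 0 of the 23 not called and before 5 of the 302 other genes called higher. A match of 2 units stood before 5 of the 18 (27.8%) and 7 of the 23 (30.4%). Matches of 2 units were common everywhere, in 16.6% of the genes called higher, 19.2% of those called lower and 15.6% of all. HSP90.1 and HSP70 held neither in this window. The palindrome CACGTG, the G-box that PIFs and other factors bind, stood before 13.4% of the genes called higher, 8.05% of those called lower and 7.61% of all. These shares describe letters in a short window and were not tested.

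Of the large chaperones, HSP90.1 (AT5G52640), the heat-inducible cytosolic HSP90, was at 11.7 and 9.54 CPM in 21FR and at 193 and 213 CPM in 30FR (log2FC 4.26 ± 0.50, SE, FDR = 1.01e-05). Its constitutive paralog HSP90.2 (AT5G56030) was at 388 and 342 CPM in 21FR and at 416 and 442 CPM in 30FR, and did not pass (log2FC 0.23 ± 0.25, SE, FDR = 0.535). The groups stood far apart for the inducible gene and close together for the constitutive one. HSP90 transcripts are close in sequence, and reads shared between them were not counted.

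HSP70 (AT3G12580), a cytosolic HSP70, was at 36.4 and 27.5 CPM in 21FR and at 334 and 353 CPM in 30FR (log2FC 3.43, FDR = 7.65e-05). ROF2 (AT5G48570), an FKBP-type prolyl isomerase that binds HSP90, was at 7.56 and 5.97 CPM and at 89.8 and 90.8 CPM (log2FC 3.75, FDR = 2.45e-06). HOP3 (AT4G12400), which bridges HSP70 and HSP90, was at 17.7 and 15.9 CPM and at 105 CPM in both libraries of 30FR (log2FC 2.64, FDR = 6.38e-07). All 3 act with HSP90 or HSP70, and in each of them the groups stood well apart. Also called higher were MBF1C, a co-activator of the heat response (log2FC 3.03), HSA32 (1.79), the disaggregase HSP101 (1.65) and HSP70-2 (1.29). CLPB4, the mitochondrial relative of HSP101, had a log2FC of 0.96 at an FDR of 0.00253, just under the threshold on the fold.

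Of 18 HSFs tested, 3 were higher and 0 lower, against 1.61% and 1.3% of all genes, with a median log2FC of 0.041. HSFA2 (AT2G26150), which sustains the heat response, was at 1.34 and 0.954 CPM in 21FR and at 8.20 and 9.47 CPM in 30FR (log2FC 2.96, FDR = 0.016). HSFB2A (1.07) and HSFB2B (1.13), repressors of the family, were near the threshold, and HSFB2A lost its call whichever library was left out (FDR 0.0714 to 0.119). The call of HSFA2 was lost without replicate 1 of 21FR (FDR = 0.0744), replicate 2 of 21FR (0.127) or replicate 2 of 30FR (0.073). HSFB2B lost its call without the same libraries (FDR 0.0914, 0.0987 and 0.113). So none of the 3 was called without replicate 1 of 21FR or replicate 2 of either group.

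In the endoplasmic reticulum, 2 of 19 chaperone and unfolded protein response genes were higher and 1 lower, with a median of 0.17. Among all genes, 1.61% were called higher and 1.3% lower. TIN1 was at 1.51 and 2.16 CPM in 21FR and at 13.40 and 14.503 CPM in 30FR (log2FC 2.90, FDR = 7.67e-05). The co-chaperone ERDJ3A had a log2FC of 1.46, and its call was lost without replicate 1 of 21FR (log2FC 1.38). BIP3, the stress-inducible form of the lumenal HSP70, went the other way, from 1.51 and 4.19 CPM to 0.451 and 0.545 CPM (log2FC -2.53), and lost its call without replicate 2 of 21FR (FDR = 0.137). Of 111 proteins with a DNAJ domain, which are HSP70 co-chaperones, 6 were higher and 1 lower, the median being 0.075. This list was added after values had been seen.

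**Figure D2:**
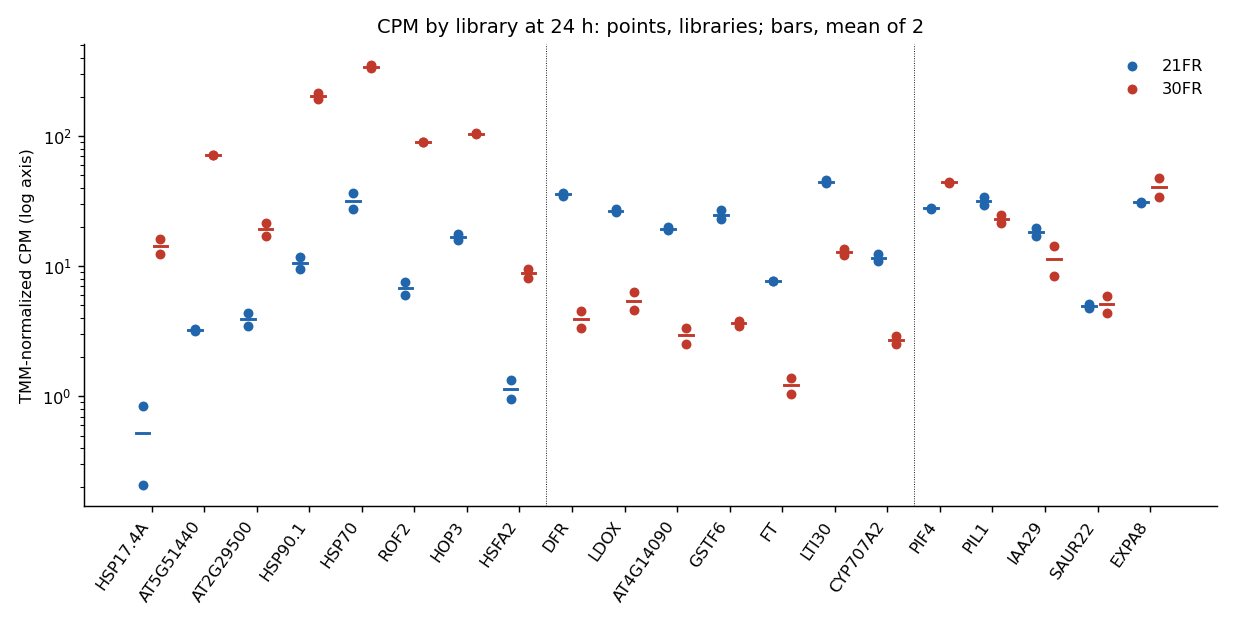
TMM-normalized CPM (log axis) of 20 genes at 24 h, with a point for each of the 2 libraries of 21FR (blue) and of 30FR (red) and a bar for their mean. Dotted lines separate heat response genes, genes called lower and growth genes. HSP90.1 goes from 11.7 and 9.54 to 193 and 213 CPM and DFR from 34.95 and 36.44 to 3.33 and 4.53 CPM, while the libraries of SAUR22 overlap between the groups.

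Beyond chaperones, some metabolic genes rose strongly. GolS1, galactinol synthase 1, the first step towards raffinose sugars, was at 3.02 and 2.57 CPM in 21FR and at 34.97 and 37.68 CPM in 30FR (log2FC 3.71, FDR = 2.32e-06). The formyltetrahydrofolate deformylase AT5G47435, an enzyme of folate metabolism, went from 35.1 and 38.1 CPM to 114 and 109 CPM (log2FC 1.61 ± 0.076, SE, FDR = 2.32e-11). SR45A (AT1G07350), a splicing factor induced by stress, was at 42.2 and 45.8 CPM and at 132 and 137 CPM (log2FC 1.61, FDR = 0.000343). None of these overlapped between groups. Of 20 SR splicing factors, SR45A was the 1 called, where 1.61% of all genes were called higher. By the FDR alone 6 were higher and 2 lower.

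Further genes with a high log2FC were the P-loop protein AT1G72660 (5.56), AT5G25450, a subunit of a ubiquinol oxidase by its annotation (4.04), and the TRAF-like AT2G32870 (3.35). CP5 (AT1G64720), a lipid-transfer-like protein named here after its values were seen, rose from 422 and 407 CPM in 21FR to 2180 and 1934 CPM in 30FR (log2FC 2.31 ± 0.13, SE). Among fatty acid desaturases, whose products set how fluid membranes are, 0 of 10 were called. Of all genes, 1.61% were called higher and 1.3% lower, so the list is too short to be set apart. By the FDR alone FAD2 was higher (log2FC 0.93, FDR = 0.000122), and the plastid FAD8 (-0.78), FAD5 (-0.65) and ADS2 (-0.37) were lower.

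Jasmonate genes gave 2 calls of 24, both higher, where 1.61% of all genes were called higher. These were VSP2, from 7.51 and 9.33 CPM to 31.9 and 49.1 CPM (log2FC 2.26), and the repressor JAZ5 (2.04). VSP2 lost its call without replicate 1 of 21FR (FDR = 0.0614) or replicate 2 of 30FR (0.062), and JAZ5 without replicate 2 of 30FR (0.0612). GA2OX4, which inactivates gibberellins, was the 1 called of 20 gibberellin genes (log2FC 1.92), where 1.61% of all genes were called higher. Seed transcripts were sparse, and the seed storage markers summed to 0.456 to 6.66 CPM. CRA1, a seed storage protein, was called higher (log2FC 3.14) with 0.448 and 0.290 CPM in 21FR against 0.695 and 5.87 CPM in 30FR, so that replicate 2 of 30FR stands apart from the other libraries.

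Late genes of anthocyanin synthesis were among the genes that fell. Of 25 flavonoid and anthocyanin genes, 0 were higher and 8 lower, against 1.61% and 1.3% of all genes, with a median log2FC of -0.84. DFR (AT5G42800), the enzyme that commits flavonoids to anthocyanins, was at 34.95 and 36.44 CPM in 21FR and at 3.33 and 4.53 CPM in 30FR (log2FC -3.19 ± 0.67, SE, FDR = 0.00193). LDOX, the next enzyme, went from 25.9 and 27.5 CPM to 4.58 and 6.33 CPM (log2FC -2.30), and TT8, the bHLH factor that activates both, from 4.76 and 4.73 CPM to 0.590 and 1.05 CPM (-2.55). The transferases that decorate the pigment fell likewise, AT4G14090 from 19.9 and 18.9 CPM to 2.53 and 3.35 CPM (-2.73), UF3GT (-2.48) and 5MAT (-2.39).

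Early steps of the pathway changed less: CHI (AT3G55120), chalcone isomerase, had a log2FC of -0.84 (FDR = 0.000106), and CHIL one of -0.80 (FDR = 1.35e-05). CHS, chalcone synthase, which opens the pathway, had one of -0.22 (FDR = 0.336). MYB12, an activator of flavonol synthesis, was higher by the FDR alone (0.56, FDR = 0.0256). How many members were called rested on the libraries used. Leaving out replicate 1 of 30FR left 1, leaving out replicate 2 of 21FR left 4, and leaving out either of the others left 6. DFR was called in each case. Without replicate 1 of 30FR the FDR was 0.0596 for LDOX, 0.0735 for TT8, 0.0691 for AT4G14090 and 0.11 for UF3GT, at log2FC of -2.08, -2.17, -2.53 and -2.19. AT4G14090 was also lost without replicate 2 of 30FR (FDR = 0.055), and UF3GT without replicate 2 of 30FR (0.0709) or of 21FR (0.0894).

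Glutathione S-transferases, which conjugate toxins and carry flavonoids, gave 6 lower and 0 higher of 33, with a median of -0.40 (a list added after values had been seen). Among all genes, 1.3% were called lower and 1.61% higher. GSTF6 was at 22.9 and 26.9 CPM in 21FR and at 3.47 and 3.81 CPM in 30FR (log2FC -2.78, FDR = 0.00183), and GSTF2 went from 23.4 and 24.0 CPM to 6.53 and 5.45 CPM (-1.98). GSTU20 (-1.68), GSTU24 (-1.26), GSTU8 (-1.14) and TT19 (-1.73), which also belongs to the flavonoid list, completed the 6. GSTU8 was under the fold threshold without replicate 2 of 30FR (-0.96).

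FT (AT1G65480), the mobile signal for flowering, was at 7.73 and 7.75 CPM in 21FR and at 1.39 and 1.05 CPM in 30FR (log2FC -2.65 ± 0.34, SE, FDR = 5.67e-05). FLM, a MADS-box repressor of flowering, went from 27.3 and 28.5 CPM to 14.1 and 12.3 CPM (-1.08, FDR = 1.27e-07), and came under the fold threshold without replicate 2 of 30FR (-0.985). An activator and a repressor of flowering thus fell in the same seedlings. Of 19 flowering time genes 2 were lower and 0 higher, against 1.3% and 1.61% of all genes. The repressors FLC (-0.90) and MAF3 (-0.79) and the factor SMZ (-0.78) were lower by the FDR alone. The list's median was -0.41.

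Of 29 iron genes, 4 were lower and 1 higher, against 1.3% and 1.61% of all genes, with a median of -0.53. Those named NAS make nicotianamine, which carries iron: NAS1 went from 71.3 and 66.9 CPM to 30.9 and 27.3 CPM (log2FC -1.24), NAS3 had a log2FC of -1.38 and NAS4 one of -1.22. CYP82C4, of coumarin synthesis, fell from 17.3 and 8.29 CPM to 1.67 and 1.17 CPM (-3.14). FRD3, a citrate exporter, rose from 9.69 and 7.38 CPM to 22.3 and 16.8 CPM (1.203). Each of these calls hung on single libraries, and 1 member was lower without replicate 2 of 30FR and 2 without replicate 1 of either group. Without replicate 2 of 30FR the FDR was 0.0918 for NAS1 and 0.104 for CYP82C4, and the log2FC of NAS4 was -0.97. Without replicate 1 of 21FR the FDR was 0.0526 for NAS1 and 0.0927 for CYP82C4. Without replicate 1 of 30FR it was 0.0581 for NAS3, 0.0548 for CYP82C4 and 0.0529 for FRD3, and without replicate 2 of 21FR it was 0.0707 for FRD3.

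Glucosinolate synthesis gave 2 lower of 21 with a median of -0.61, where 1.3% of all genes were called lower. These were MAM3, which lengthens methionine side chains (log2FC -1.53), and CYP83A1 (-1.36). CYP83A1 lost its call whichever library was left out and by DESeq2 (FDR = 0.105). MAM3 kept it only without replicate 2 of 21FR, where 1 member was called, against 0 without any of the others. NSP3, a nitrile specifier that acts when glucosinolates are broken down, fell from 6.67 and 6.76 CPM to 0.174 and 0.629 CPM (-4.10 ± 0.38, SE, FDR = 4.24e-07). CYP707A2, which breaks down abscisic acid, fell from 10.9 and 12.4 CPM to 2.53 and 2.93 CPM (-2.096, FDR = 1.93e-05). It was the 1 called of 20 abscisic acid and dehydration genes, most of which went the other way. Of the 20, 17 had a log2FC above 0 and 3 below, with a median of 0.39. The dehydrin LTI30, a cold and drought gene, fell from 46.3 and 43.3 CPM to 13.5 and 12.2 CPM (-1.80, FDR = 0.000904). It was the 1 called of 25 cold-regulated genes, where 1.3% of all genes were called lower. The groups did not overlap in any of these 3 genes. The 12 genes with the lowest log2FC were taken among those called with a mean of at least 5 CPM in 21FR. Of these 12, NSP3, the defensin PDF2.1 (-2.997), the myrosinase-binding MBP1 (-3.07), AT3G16670 (-3.11), the mutarotase-like AT3G01260 (-3.86) and AT5G43180 (-2.405) were in no list.

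Many photosynthetic genes were lower by small amounts. Of 36 nuclear photosystem and antenna genes, 20 were lower and 1 higher by the FDR alone, against 11.9% and 9.5% of all genes, with a median log2FC of -0.38 and a lowest of -0.73. PSBP-2, of photosystem II, was the 1 higher (1.19), a call lost whichever library was left out (FDR 0.0983 to 0.214). PSAD-1, a photosystem I subunit, was at 1363 and 1434 CPM in 21FR and at 902 and 877 CPM in 30FR (log2FC -0.65, FDR = 0.000419). Of 22 chlorophyll genes, 9 were lower and 1 higher by the FDR alone, with a median of -0.28, among them CHLI1 of magnesium chelatase (-0.89) and the protochlorophyllide reductase PORB (-0.92). RBCS1A, the Rubisco small subunit used as a leaf marker, went from 27922 and 28349 CPM to 14909 and 13960 CPM (-0.96, FDR = 0.000282). The 6 stomatal lineage markers, 2 of them lower by the FDR alone, had sums of 50.7 and 43.2 CPM in 21FR against 33.4 and 34.7 CPM in 30FR. The part of the leaf markers' level in these results was not tested. Scaled by library size alone, the photosystem median was -0.19 and the chlorophyll median -0.091.

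**Figure D3:**
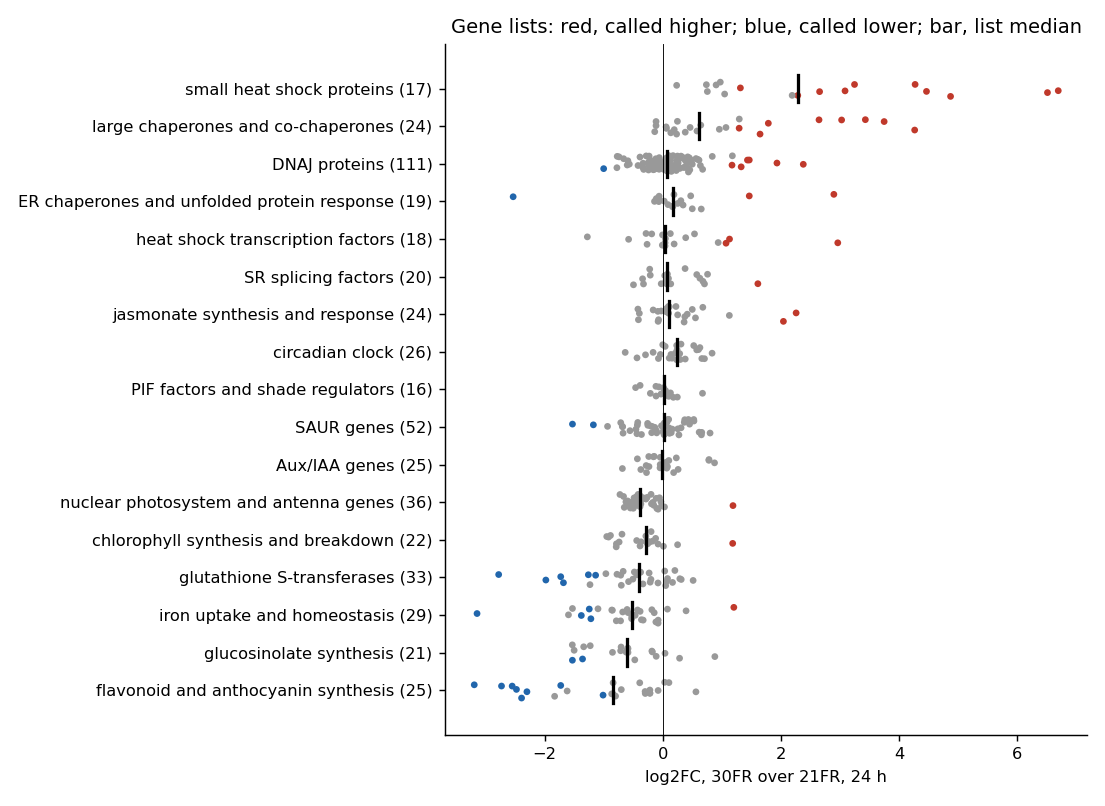
Each point is a tested member of a gene list, placed by its log2FC of 30FR over 21FR at 24 h. Red points were called higher, blue ones lower and grey ones not called, bars are list medians and the number tested is in parentheses. Small heat shock proteins have a median of 2.28 and flavonoid and anthocyanin genes of -0.84, while the PIF list and the SAUR genes are centred near 0, at 0.018 and 0.021.

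Few or no calls fell among growth regulators, as among genes in general, of which 1.61% were called higher and 1.3% lower. Of 16 PIFs and shade regulators 0 were called in either direction, of 25 Aux/IAA genes 0, of 8 auxin synthesis genes 0 and of 18 alpha-expansins 0, and medians were 0.018, -0.012, 0.013 and -0.10. PIF4 was at 27.4 and 28.3 CPM in 21FR and at 44.0 and 44.8 CPM in 30FR (log2FC 0.67 ± 0.24, SE, FDR = 0.051), so that its groups stood apart but it did not pass. PIF7, the PIF with the main part in shade, was at 15.6 and 18.8 CPM in 21FR and at 14.2 and 12.2 CPM in 30FR (-0.38 ± 0.18, SE, FDR = 0.133). PHYB was at 127 and 125 CPM and at 125 and 131 CPM (0.022 ± 0.082, SE).

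Targets of shade signalling had these values. PIL1 was at 29.4 and 34.0 CPM in 21FR and at 24.6 and 21.5 CPM in 30FR (log2FC -0.46 ± 0.18, SE, FDR = 0.0649), and IAA29 at 16.97 and 19.61 CPM and at 14.3 and 8.38 CPM (-0.68 ± 0.28, SE, FDR = 0.0852). SAUR22, of a family that promotes cell expansion, was at 5.10 and 4.81 CPM and at 5.87 and 4.40 CPM (0.057 ± 0.38, SE). Its groups overlapped, as did those of YUC8, an auxin synthesis gene, at 5.04 and 6.30 CPM in 21FR and at 6.49 and 5.87 CPM in 30FR (0.12 ± 0.26, SE). The wall-loosening EXPA8 had a log2FC of 0.39 ± 0.22 (SE), ATHB2 of 0.064, IAA19 of 0.26, YUC9 of 0.27, SAUR19 of 0.43, PIF5 of 0.13, GH3.6 of -0.066 and GH3.17 of 0.081, and none passed. Of 52 SAUR genes 2 were lower, where 1.3% of all genes were called lower. These were AT1G16510 and AT3G53250, both at 1.29 CPM or less. AT1G16510 lost its call whichever library was left out, and AT3G53250 kept it only without replicate 1 of 30FR.

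Some hormone genes passed by the FDR alone, under the fold threshold, and some wall genes were called. BES1, a transcription factor of brassinosteroid signalling, was lower by the FDR alone (-0.63, FDR = 0.00033), as was BR6OX2, which makes brassinosteroids (-0.66, FDR = 0.0042). GH3.9 and GH3.5, of auxin conjugation, were higher by the FDR alone (0.72 and 0.65). Calls were 0 of 19 for photoreceptors, of 10 for auxin transporters, of 26 for clock genes, of 24 for cell cycle genes and of 9 for cellulose synthases, lists too short to be set apart from the 1.61% and 1.3% of all genes. PR5, a salicylic acid response gene, was lower (-1.81), the 1 called of 12 in its list, and lost its call without replicate 2 of 30FR (FDR = 0.1). Of 26 XTH genes, whose enzymes cut and join xyloglucan in the wall, 2 were lower, XTH31 from 120 and 111 CPM to 48.4 and 53.6 CPM (-1.18, FDR = 0.000421) and XTH20 (-1.59). The aquaporin TIP2;3 was lower (-1.27) and lost its call without replicate 1 of 21FR (FDR = 0.067) or replicate 2 of 30FR (0.112).

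To ask whether warming acted differently in low R/FR and in white light, the response at 24 h in low R/FR was compared with that of 30WL over 21WL at 24 h in the same fit. The responses share no library. The difference passed for 0 genes in the direction of a higher log2FC in low R/FR (0%) and for 2 in the other (0.00993%), with 1316 genes at an unadjusted p below 0.05. By edgeR's likelihood ratio test 13 genes passed and by DESeq2 14. AT4G27300, a receptor kinase with an S-locus lectin domain, fell from 15.2 and 17.2 CPM to 8.02 and 6.66 CPM in low R/FR, and had 13.1 and 12.5 CPM in 21WL and 17.2 and 15.3 CPM in 30WL (difference -1.48 ± 0.20, SE, edgeR's FDR = 0.00617). EFE, an ethylene-forming enzyme, was at 246 and 240 CPM in 21FR and at 190 and 184 CPM in 30FR, but at 105 and 102 CPM in 21WL and 154 and 190 CPM in 30WL (difference -1.11 ± 0.17, SE, FDR = 0.0131). Neither passed in a fit of the 24 h libraries alone. Leaving out replicate 2 of 21FR or of 30FR left 0 genes, leaving out replicate 1 of 21FR or replicate 2 of 30WL left 1, and leaving out replicate 1 of 21WL gave 7.

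For genes called in low R/FR, the responses in white light pointed mostly the same way, with 312 of the 324 higher genes above 0 and 244 of the 261 lower genes below 0. Their medians were 1.39 in low R/FR and 1.01 in white light for the higher genes, and -1.37 and -0.89 for the lower ones. Since the genes were chosen by their values in low R/FR, these medians are a description and were not tested. HSP90.1 had a log2FC of 4.26 in low R/FR and 3.13 in white light (difference 1.14 ± 0.66, SE, edgeR's FDR = 0.804). PIF4 had 0.67 and 2.104 (difference -1.43 ± 0.36, SE, FDR = 0.278), SAUR22 0.057 and 2.88 (-2.83 ± 1.03, SE, FDR = 0.602) and EXPA8 0.39 and 1.66 (-1.27 ± 0.32, SE, FDR = 0.292). The white light value of SAUR22 rests on a mean of 0.135 CPM in 21WL, at the detection limit, against 0.993 CPM in 30WL. Other genes of growth control had closer values, IAA19 with 0.26 in low R/FR and 0.19 in white light and YUC9 with 0.27 and 0.14. None of these differences passed.

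**Figure D4:**
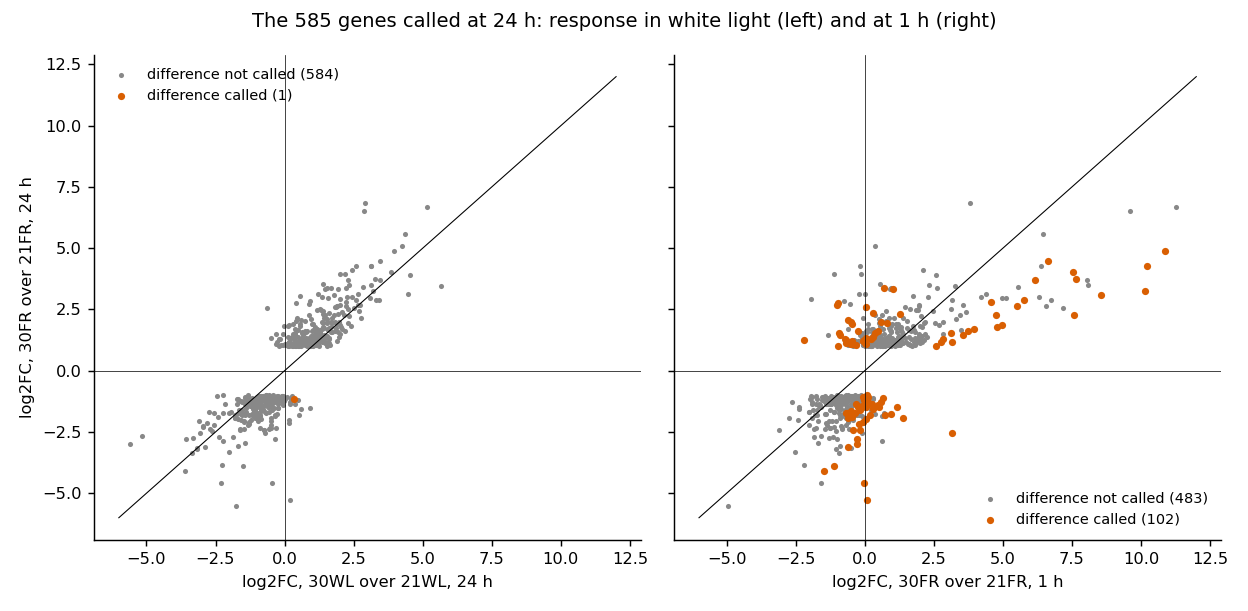
The 585 genes called at 24 h, with the log2FC of 30FR over 21FR at 24 h on the vertical axes and, on the horizontal axes, that of 30WL over 21WL at 24 h (left) or that of 30FR over 21FR at 1 h (right). Orange points are genes whose difference between the responses passed the test, 1 on the left and 102 on the right, and the diagonal marks equal responses.

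The same warming was also measured at 1 h in low R/FR, again with no library in common. The log2FC at 24 h was higher than at 1 h for 177 genes (0.879%) and lower for 225 (1.12%). Of the 324 genes higher at 24 h, 59 differed from 1 h, 23 of them with a lower log2FC at 24 h and 36 with a higher one, and 22 of the 59 had a log2FC below 0 at 1 h. Of the 261 lower genes, 43 differed, all 43 with a lower log2FC at 24 h, and 19 of them had one above 0 at 1 h. The genes were chosen by their log2FC at 24 h, which moves these differences towards the direction of the call. The split of directions is thus a description and was not tested. The total of 402 was smaller in each fit that left out a library. At 24 h, leaving out replicate 1 or 2 of 21FR gave 247 or 253 and replicate 2 of 30FR gave 235, and at 1 h replicate 1 or 2 of 21FR gave 250 or 229. Scaled by library size alone, 513 were higher and 141 lower.

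Chaperone genes were among those with a lower log2FC at 24 h than at 1 h. The difference passed for 11 of 17 small heat shock proteins, 9 of 24 large chaperones and 12 of 19 genes of the endoplasmic reticulum list, all of them lower at 24 h. Among all genes, 1.12% were lower at 24 h by this test. AT2G29500, an HSP20-like chaperone, was at 1227 and 1150.0 CPM in 30FR at 1 h, at 208 and 120 CPM at 3 h, at 67.0 and 68.8 CPM at 6 h and at 17.2 and 21.4 CPM at 24 h. In 21FR it stayed between 3.47 and 6.78 CPM (difference of the log2FC -5.28, edgeR's FDR = 4.38e-06). HSP90.1 was at 1161 and 1178 CPM in 30FR at 1 h, at 294 and 154 CPM at 3 h, at 117 and 180 CPM at 6 h and at 193 and 213 CPM at 24 h. From 3 h on it lay between 117 and 294 CPM, and the difference did not pass (-2.11, FDR = 0.0587). ROF2 (-3.91, FDR = 0.000263) and HOP3 (-2.87, FDR = 5.76e-05) passed. BIP3 had a log2FC of 3.18 at 1 h and of -2.53 at 24 h (difference -5.71, FDR = 0.000964).

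Further genes with the smallest FDR for this difference were Hrd1B, a ubiquitin ligase of protein quality control (log2FC 2.15 at 1 h and 0.51 at 24 h), AT5G11680 (1.25 and -0.098), SR30, a splicing factor (2.09 and 0.71), and AT5G47435, which went up (0.49 and 1.61). All had an FDR of 4.81e-06 or less. PIF4 had a log2FC of 2.90 at 1 h and 0.67 at 24 h (difference -2.22, FDR = 0.000956), PIF5 of 1.39 and 0.13 (FDR = 0.00312) and PIF7 of 0.83 and -0.38 (FDR = 0.0111). PIF4 was at 76.5 and 74.9 CPM in 30FR at 1 h and at 44.0 and 44.8 CPM at 24 h, and in 21FR it was at 12.5 and 7.93 CPM and at 27.4 and 28.3 CPM. So the gap narrowed from both sides. Of 26 clock genes, 6 were lower and 1 higher at 24 h than at 1 h, against 1.12% and 0.879% of all genes. LNK1 had a log2FC of 2.24 at 1 h and 0.66 at 24 h, and ELF4, the 1 higher, of -1.12 and 0.52 (FDR = 0.000109).

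Other genes called lower at 24 h had a log2FC that was lower than at 1 h. LTI30 had a log2FC of 0.74 at 1 h and -1.80 at 24 h (FDR of the difference = 0.00312), CYP707A2 of -0.073 and -2.096 (FDR = 0.00289) and GSTF2 of 0.053 and -1.98 (FDR = 0.00962). NSP3 was already lower at 1 h, with 8.83 and 9.14 CPM in 21FR against 3.57 and 2.89 CPM in 30FR, and its log2FC went from -1.48 to -4.10 (FDR = 0.00387). DFR had -1.03 and -3.19, a difference that did not pass (FDR = 0.136). It was already at 7.94 and 2.74 CPM in 30FR at 3 h, against 144 and 108 CPM in 21FR, and its level in 21FR also declined, to 34.95 and 36.44 CPM at 24 h. Of the 25 flavonoid genes, 0 passed this difference, a list too short to be set apart from the 0.879% higher and 1.12% lower of all genes.

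**Figure D5:**
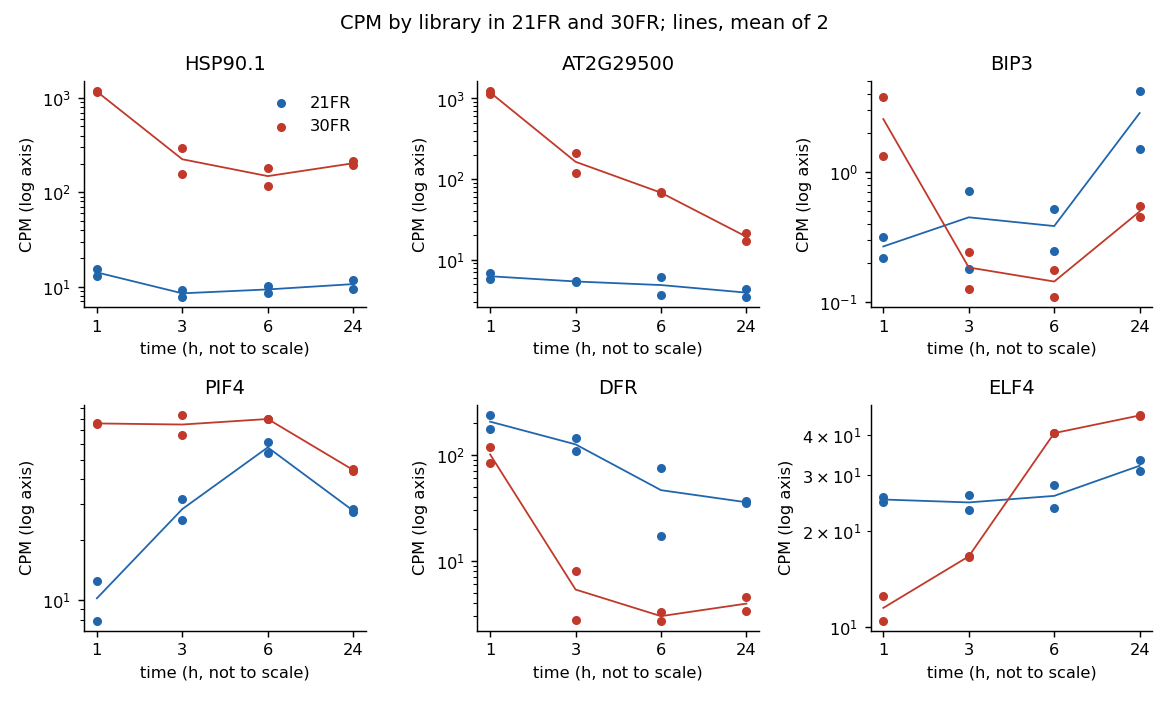
CPM (log axis) of 6 genes in 21FR (blue) and 30FR (red) at 1, 3, 6 and 24 h (not to scale), with a point per library and a line through the mean of 2. AT2G29500 in 30FR declines from 1227 and 1150.0 CPM to 17.2 and 21.4 CPM, HSP90.1 levels off, PIF4 in 30FR comes closer to 21FR, and DFR in 30FR is low from 3 h.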

How the data were processed

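The authors aligned 50 bp single-end reads of stranded libraries to TAIR10 with STAR 2.5.4 and counted them per gene with HTSeq 0.6.0, and deposited these counts without normalization. They also deposited a normalized signal, which they call CPM, used here only as an alternative for the median log2FC of lists. The 5 summary lines were left out of library sizes. Groups came from the sample labels. Genes over 1 CPM in 2 or more of 32 libraries were kept. Their counts were modelled in edgeR 4.0.16 (R 4.3.3, TMM normalization), with a coefficient for each of 16 groups (common biological coefficient of variation 0.115). Contrasts were tested by quasi-likelihood with Benjamini-Hochberg adjustment over 20145 genes. The SE is the log2FC without prior count over the square root of F. The procedure was tested on simulated data. Pools are separate, so p-values measure the spread between pools. The labels do not say whether replicate numbers pair libraries, and they were not taken as pairs. The deviations of the same replicate number in 21FR and 30FR at 24 h correlated at 0.0725 across genes, which cannot decide this for the series.

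Genes picked for naming were the 12 highest and 12 lowest log2FC among genes called with at least 5 CPM in the higher group. Also picked were up to 4 called members per list (or the 2 of smallest p), genes the study measured, and up to 5 genes per difference test. Not every gene picked is printed. Other genes were named after their values were seen. Members and lists were chosen with earlier results of these data known. Gene names and windows came from RefSeq TAIR10.1, which held 32835 of the 33602 gene IDs. 109 genes tested had no upstream window. Alternatives were the likelihood ratio test, DESeq2 1.42.0 and its size factors, no filter, fewer groups, a replicate block, a threshold on the FDR without one on the fold, leaving out each library in turn and, added after the data were seen, scaling by library size.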

Additional observations from a re-analysis of the deposited data

Results flagged for a closer look

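For 7 genes and 2 counts of genes, the response to warming differed between groups by a test of the difference itself. The response to warming at 24 h differed between low R/FR and white light for 2 genes, AT4G27300 (difference of the log2FC -1.48) and EFE (-1.11). Between 24 h and 1 h within low R/FR it differed for 402 genes, and the 5 with the smallest FDR were Hrd1B (-1.64), AT2G29500 (-5.28), AT5G11680 (-1.35), AT5G47435 (1.12) and SR30 (-1.39). A negative value means a lower log2FC in low R/FR than in white light, or at 24 h than at 1 h.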

How the results depend on the processing

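The count of 585 genes for 30FR over 21FR was 531 to 741 under the other tests, scalings, filters and sets of libraries, 4319 by the FDR alone and 350 to 510 with 1 library left out. With the replicate block it was 594, and the block changed the call of 0 of the 66 called genes picked by the naming rules. Some of these 66 are not printed above, and genes named after their values were seen are not among them. The 402 genes that differed between 24 h and 1 h were 1317 by the FDR alone, 654 with library size alone, 706 with the 4 groups alone, 406 with the replicate block and 229 to 329 with 1 library left out. The 2 genes that differed between low R/FR and white light were 13 by the likelihood ratio test, 14 by DESeq2, 5 without a filter, 0 with the 24 h libraries alone (1549 at an unadjusted p below 0.05), 2 with the replicate block and 0 to 7 with 1 library left out. Of the 66 called genes picked by the naming rules, 34 were called in the same direction under every alternative run and 0 changed sign. With library size alone 8 of the 66 lost their call. FLM (-0.89), XTH31 (-0.99), GSTU8 (-0.95), AT4G27300 (-0.95), AT1G16510 (-0.99) and the DnaJ protein AT1G30280 (-0.82) came under the fold threshold. CYP83A1 (FDR = 0.0596) and AT3G53250 (FDR = 0.0518) missed the FDR threshold of edgeR's test. From the deposited normalized signal, the log2 ratio of group means was taken after adding 0.5 to each, instead of edgeR's log2FC. The median of the small heat shock proteins was then 1.86 instead of 2.28, and those of 13 other lists moved by less than the spread between replicates. Adding 0.5 draws ratios of genes with low CPM towards 0, and its part was not separated from that of the signal. Among named genes that were not called, some values near 0 changed sign. With library size alone GH3.6 was at 0.12 and AT5G11680 at 0.087. With 1 library left out, PHYB ranged from -0.0093 to 0.052, ATHB2 from -0.062 to 0.18, YUC8 from -0.026 to 0.295, YUC9 from -0.088 to 0.54, SAUR22 from -0.17 to 0.25 and GH3.17 from -0.030 to 0.20. The cause was not tested. Where 1 library was left out, the lone library of its group was assumed to vary like those of the other groups. The p-values rest on 2 libraries per group and on a spread shared over 16 groups.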
